A study of Drosophila melanogaster with 13 samples.

Results

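The nuclear genes for the mitochondrial ribosome and for oxidative phosphorylation were examined as targets of Pita in adult Drosophila melanogaster. They were taken from the RefSeq Release 6 gene table by symbol, as genes named mRpL or mRpS with a number, ND-, COX with a number, UQCR- or ATPsyn. The rule gave 153 genes, out of 17684 on the main chromosome arms, the X and chromosome 4. All 153 are protein coding. A further 3 symbols that match, COX1, COX2 and COX3, lie on the mitochondrial genome and were left out.

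Pita is a zinc-finger architectural protein found at insulators, and it pairs with itself through its N-terminal ZAD, the zinc finger-associated domain. ChIP-seq was made from whole flies aged 2 to 3 days of the lines pita1attP Pitawt (wild-type Pita), pita1attP PitadeltaZ in y1w1118 (here PitaΔZ, without the ZAD) and pita1attP PitaZ276 (with the ZAD-like domain of human ZFP276). A FLAG antibody and a Pita antibody were used in each line, with 2 libraries per line and antibody, and 1 preimmune library from Pitawt served as background for all 6 peak lists. Each list joins a pair of peak lists, so there is 1 value per line and antibody with no spread between replicates, and no test between lines could be made. Whole bodies mix all tissues, so a site bound in fewer cells and one bound less per cell cannot be told apart. The lists held 1792 (Pitawt FLAG), 1195 (Pitawt Pita), 685 (PitaΔZ FLAG), 797 (PitaΔZ Pita), 1243 (PitaZ276 FLAG) and 492 (PitaZ276 Pita) peaks. Read depth is unknown. The joined columns of the PitaZ276 Pita list were far apart, with median −log10 p values at the mitochondrial sites of 28.0 (first) and 1413 (second). Membership used no peak values, but the genes were proposed with results of these lists in view.

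Oxidative phosphorylation uses the respiratory complexes of the inner mitochondrial membrane to pump protons, and ATP synthase uses the resulting gradient to make ATP. Complex I (ND- genes) takes electrons from NADH, complex III (UQCR- genes) passes them from ubiquinol to cytochrome c, and complex IV (COX genes) reduces oxygen. The mitochondrial ribosome, with a large (mRpL) and a small (mRpS) subunit, makes the few subunits that the mitochondrial genome still encodes. Its own proteins come from the nucleus, so both gene groups have to be transcribed there for the complexes to be assembled.

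In Pitawt FLAG, 18 of the 153 genes had a Pita summit no more than 500 bp from an end, 11.8% (95% exact Clopper-Pearson interval 7.12 to 18.0), where 8.51% of all genes were reached. In Pitawt Pita 13 genes were reached (8.50%, 4.60 to 14.1), against 6.01% of all genes. PitaΔZ FLAG reached 12 (7.84%, 4.12 to 13.3) against 4.35%, and PitaΔZ Pita reached 11 (7.19%, 3.64 to 12.5) against 4.87%. PitaZ276 FLAG reached 15 (9.80%, 5.59 to 15.7) against 6.64%, and PitaZ276 Pita reached 10 (6.54%, 3.18 to 11.7) against 2.96%. The share of the mitochondrial genes was above that of all genes in each list, but in 5 of the 6 lists the interval includes the value for all genes. The exception was PitaZ276 Pita, the shortest list. Against protein-coding genes alone, which were reached at 9.92% in Pitawt FLAG and 3.48% in PitaZ276 Pita, the interval for PitaZ276 Pita included the background as well. The shares depended on the peaks and window used. With every list shortened to its strongest 492 peaks, 10 to 12 of the genes were reached (6.54% to 7.84%), where 2.88% to 3.45% of all genes were, and the interval lay above the value for all genes in all 6 lists and above that for protein-coding genes in 2. Intervals cover counting error only, and the genes were proposed with these lists in view. No result about the genes as a group is read from these shares, and what follows describes the individual sites.

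**Figure D1:**
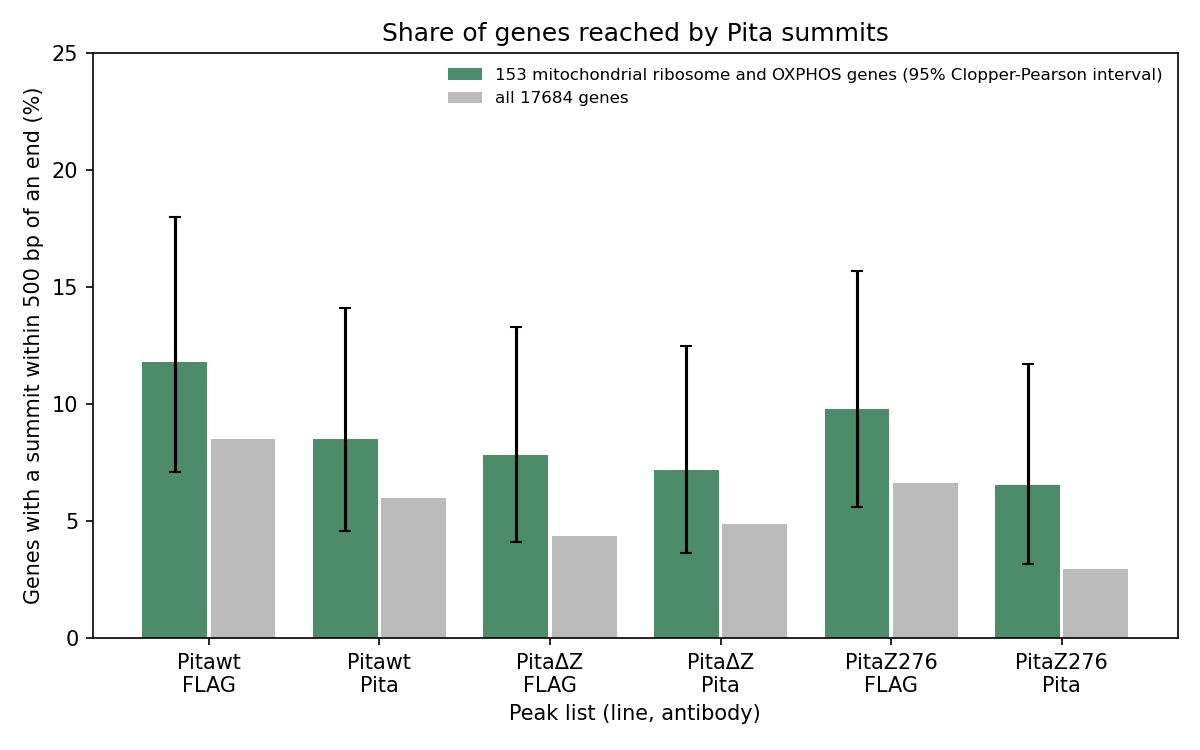
Percent of genes with a Pita summit within 500 bp of either end, for the 153 mitochondrial ribosome and oxidative phosphorylation (OXPHOS) genes (green, bars with 95% Clopper-Pearson intervals) and for all 17684 genes (grey), in each of the 6 peak lists. The green bars run from 6.54% to 11.8%, and the grey value lies inside the interval in every list but PitaZ276 Pita.

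Every member reached in any list was also reached in Pitawt FLAG, the longest list. Among strong peaks this was not particular to these genes. Of the 200 strongest peaks of each other list, all those on the main chromosomes met a Pitawt FLAG peak. Some member peaks ranked lower, as at COX7A in PitaZ276 FLAG (rank 881), and for such peaks the share over all genes was not computed. ScsbetaG, a tricarboxylic acid cycle gene outside the members, was reached in PitaZ276 FLAG (rank 1164) and not in Pitawt FLAG. Altogether 18 of the members were reached in some list and 135 were not, and the same share over all genes was not computed. Of the 18, 9 were reached in all 6 lists, namely ATPsynD, ATPsynF, ND-B14.5B, ND-B8, UQCR-Q, mRpL1, mRpL13, mRpL33 and mRpL47. These 9 are 5.88% of the 153 genes, where 2.36% of all genes were reached in all 6 lists. Without PitaΔZ Pita, which lacked many of the strongest sites as described at ATPsynC, 10 members (6.54%) were in the other 5 lists, against 2.56% of all genes. ATPsynC, mRpL27 and mRpS6 were reached in 5 lists. ND-15 was reached in 3, mRpL52 and COX7A in 2, and COX6B, ND-MWFE and mRpL18 in Pitawt FLAG alone.

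By complex, Pitawt FLAG reached 7 of 47 mRpL genes (14.9%, 6.20 to 28.3) and 1 of 26 mRpS genes (3.85%, 0.0973 to 19.6). It reached 4 of 40 complex I genes (10.0%, 2.79 to 23.7), 1 of 9 complex III genes, 2 of 16 complex IV genes and 3 of 15 ATP synthase genes (20.0%, 4.33 to 48.1). In PitaΔZ FLAG the counts were 5 for mRpL, 1 for mRpS, 2 for complex I, 1 for complex III, 0 for complex IV and 3 for ATP synthase. PitaZ276 FLAG held 6, 1, 3, 1, 1 and 3 in that order of groups. With the FLAG antibody, the share of all genes reached was 8.51% for wild-type Pita, 4.35% without the ZAD and 6.64% with the ZFP276 domain. The interval of every group included the value for all genes in the same list. It did so only narrowly for ATP synthase in PitaΔZ FLAG (4.33 to 48.1). With 9 to 47 genes per group the intervals overlap widely, and no complex can be set apart from another or from all genes. The 0 of 16 complex IV genes in PitaΔZ FLAG allows a share of up to 20.6%.

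Among ATP synthase genes, ATPsynC (3R, 31216145 to 31219630), which encodes the subunit of the rotating c-ring, had the highest fold of the 18 genes in every list that held it. A fold here is the authors' enrichment over background at the peak, and it describes each list alone. Ranks use the −log10 p of the first joined column. Which joined list the folds come from is not stated. In PitaZ276 Pita low folds stood beside low −log10 p in the first column and high values in the second. At ATPsynD, for example, the fold was 10.8, with 41.9 in the first column and 2854 in the second. Low folds in that list are therefore not read as weak enrichment in the line. At ATPsynC the fold was 178 in Pitawt FLAG (rank 3 of 1792 by −log10 p), 226 in Pitawt Pita (rank 3 of 1195) and 283 in PitaΔZ FLAG (rank 4 of 685). In PitaZ276 it was 104 with FLAG (rank 2 of 1243) and 42.5 with Pita (rank 2 of 492). The PitaΔZ Pita list had no peak there. The other strong sites were often missing from that list too. None of the 10 strongest PitaΔZ FLAG peaks met a PitaΔZ Pita peak, nor did 22 of the strongest 50, and these 22 were all that were missing among the strongest 200. In each of the 4 other lists all of the strongest 50 were met. Whether the PitaΔZ Pita list was filtered before deposit is not stated in the sources used here, so its missing peak at ATPsynC cannot be read as a lack of binding, and ranks in it are counted without those sites. The other 5 lists placed the summit within 20 bp of each other, 71 to 91 bp outside the gene. ATPsynC was the only one of the 12 genes in the PitaΔZ FLAG list that the Pita list of that line lacked.

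ATPsynD (3R, 19095000 to 19096271), for the d subunit in the stalk that holds the enzyme still, had FLAG folds of 42.0 in Pitawt, 69.1 in PitaΔZ and 48.7 in PitaZ276. Its Pita folds were 30.7, 40.1 and 10.8 in the same order. The site at ATPsynD was broad and its summit moved over 278 bp between lists, from 74 bp outside the gene in PitaΔZ Pita to 352 bp in PitaΔZ FLAG. In PitaZ276 FLAG the peak was 3743 bp wide and also covered the neighbouring member mRpL55, whose ends lay 1613 bp or more from the summit. ATPsynF (2R, 24599088 to 24599821), for the small membrane subunit f, had FLAG folds of 28.4, 28.8 and 26.4 and Pita folds of 20.0, 15.7 and 5.71, with a summit 56 to 88 bp outside the gene. The other 12 ATP synthase genes had no summit within 500 bp in any list.

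In complex III, UQCR-Q (3L, 17474761 to 17476124), which encodes a small subunit of the complex, was the only one of 9 genes reached. With FLAG, Pitawt had a fold of 74.6 (rank 67), PitaΔZ 94.4 (rank 94) and PitaZ276 45.5 (rank 87). The Pita folds were 61.3, 73.7 and 11.0. Here the summit lay inside the gene in all 6 lists, 210 to 290 bp from its end. UQCR-C1, a core subunit of complex III, met peaks in PitaZ276 FLAG, with folds of 17.9 and 2.72, but neither summit came within 500 bp of its ends.

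Complex I had a pair of genes in all 6 lists. ND-B8 (2L, 4454626 to 4455207) and ND-B14.5B (2L, 3144953 to 3145848) both encode accessory subunits of that complex. ND-B8 had FLAG folds of 44.3 for Pitawt, 40.3 for PitaΔZ and 28.7 for PitaZ276. Its Pita folds were 48.4, 30.1 and 8.29. ND-B14.5B had 37.9, 92.9 and 36.4 with FLAG and 26.9, 51.7 and 3.40 with Pita. The ND-B14.5B summit sat 15 to 22 bp outside the gene in 5 lists, and 383 bp inside it in PitaZ276 Pita, where the peak ranked 432 of 492. The −log10 p of that peak was 7.76 in the first joined column and 494 in the second.

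ND-15, another accessory subunit gene of complex I (2L, 114726 to 156030 in the RefSeq table), differed from these. Its summit lay 2 to 13 bp from the gene end, closer than that of most members, and the fold was 16.4 in Pitawt FLAG, 7.65 in Pitawt Pita and 10.3 in PitaZ276 FLAG. Neither PitaΔZ list held it. ND-MWFE, which encodes a further complex I subunit, was listed in Pitawt FLAG alone, with a fold of 5.43 and a rank of 1392 of 1792.

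Complex IV genes had only weak sites. COX6B had a Pitawt FLAG fold of 3.91 (rank 1633), the lowest of the 18 genes, and was listed nowhere else. COX7A had 4.81 in Pitawt FLAG (rank 1472) and 6.07 in PitaZ276 FLAG (rank 881), with summits 763 bp apart, the first inside the gene and the second outside. COX7AL2 met a stronger peak in its body, with folds of 14.3 in Pitawt FLAG, 13.6 in Pitawt Pita and 6.13 in PitaZ276 FLAG, but the summit was at least 2392 bp from either gene end and fell outside the rule.

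Of the large ribosomal subunit genes, mRpL13 (2L, 18858028 to 18859248) had the highest folds in the Pitawt and PitaΔZ lists but not in the PitaZ276 lists. FLAG gave 67.3 for Pitawt (rank 73), 112 for PitaΔZ (rank 57) and 32.0 for PitaZ276 (rank 164). With the Pita antibody the fold was 70.1 for Pitawt and 85.1 for PitaΔZ, where it ranked 10 of 797. For PitaZ276 it was 4.83, which ranked 320 of 492 and was the lowest of the 4 mRpL genes in that list. That rank rests on the first joined column, with a −log10 p of 12.1, where the second column had 1955. Among the 9 sites reached in all 6 lists, the second column put mRpL13 in position 2 in both PitaZ276 lists. mRpL47 (3R, 9514822 to 9515908) had FLAG folds of 53.8, 32.8 and 32.6 and Pita folds of 42.0, 21.0 and 7.35. Both summits lay 34 to 97 bp outside the gene in all lists.

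mRpL1 (3R, 8301440 to 8302770) had FLAG folds of 39.0 in Pitawt, 72.5 in PitaΔZ and 26.6 in PitaZ276, with Pita folds of 35.6, 46.3 and 7.32. mRpL33 (X, 4321764 to 4322231) had 39.6, 71.4 and 35.2 with FLAG and 19.9, 43.2 and 6.68 with Pita. mRpL27 (2L, 4458595 to 4459638) had 20.7, 41.0 and 16.7 with FLAG, and 15.8 in Pitawt Pita and 26.7 in PitaΔZ Pita. Its summit lay inside the gene, 249 to 273 bp from the end, and the PitaZ276 Pita list did not hold it. The sites of ND-B8 and mRpL27 lay 4343 bp apart on 2L with no other Pitawt FLAG summit between them. That interval met 5 genes, ND-B8 and mRpL27 among them, and the ND-B8 summit was nearer to Secp43 than to ND-B8. How often sites of other genes lie this close was not computed.

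mRpL52 had weaker sites, with folds of 8.69 in Pitawt FLAG and 5.35 in PitaZ276 FLAG, and mRpL18 had 4.99 in Pitawt FLAG alone. In the small subunit mRpS6 (3L, 4364550 to 4365243) was the only one of 26 genes reached. It had FLAG folds of 13.2, 18.6 and 8.46 and Pita folds of 8.53 in Pitawt and 16.2 in PitaΔZ. Its summit was 411 to 459 bp outside the gene, near the limit of the window.

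**Figure D2:**
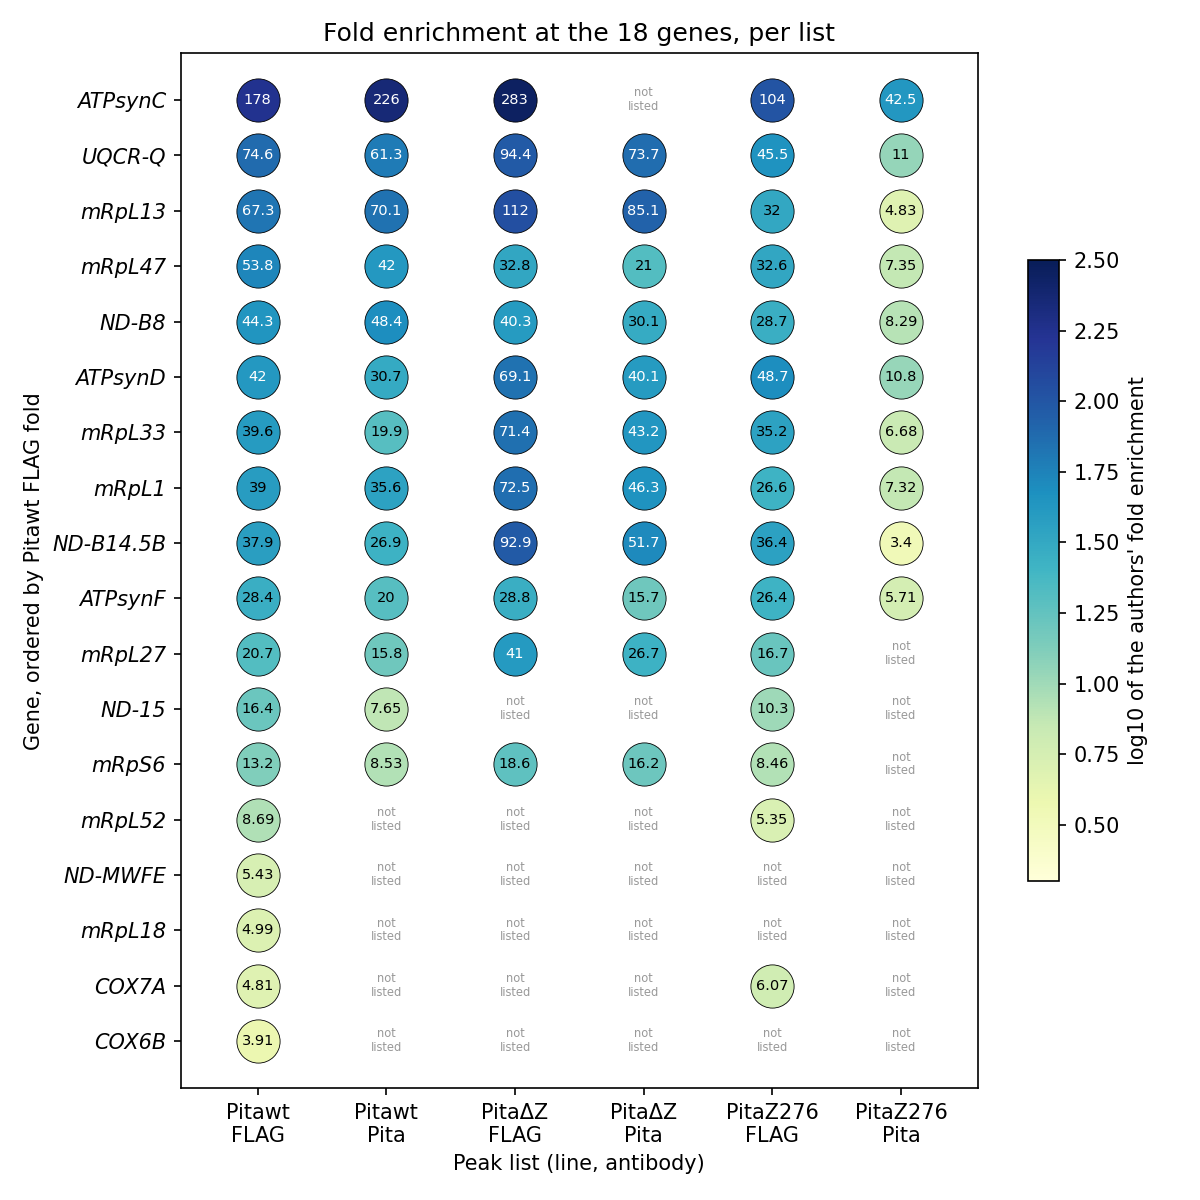
The authors' fold enrichment (number and colour, log10 scale) of the peak within 500 bp of each of the 18 genes, in rows ordered by Pitawt FLAG fold and in columns for the 6 peak lists. The genes from mRpL27 upward, with Pitawt FLAG folds of 20.7 or more, were listed in at least 5 lists, while the 5 lowest were in no Pita antibody list and no PitaΔZ list.

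A threshold at 500 bp leaves members on either side. Just inside it were COX7A at 479 bp and mRpS6 at 455 bp in Pitawt FLAG. Just outside were ATPsynCF6 (547 bp, fold 7.80) and mRpL39 (629 bp, fold 8.66). In all, 7 members had their nearest Pitawt FLAG summit 501 to 1000 bp away (4.58%, against 3.61% of all genes), with mRpL50 (fold 18.2) and ATPsyndelta (fold 13.2) the strongest. The nearest Pitawt FLAG summit was over 10 kb away for 77 members (50.3%, against 61.0% of all genes).

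Most of the sites that were strong in the wild type were listed in the altered lines as well, with ATPsynC in PitaΔZ Pita as the exception. Among the 977 Pitawt FLAG peaks within 500 bp of any gene end the upper quartile of fold was 27.0, and 10 of the 18 mitochondrial sites lay above it. All 10 met a PitaΔZ FLAG peak by at least 1 bp, where 95.1% of all peaks in that quartile did, and all 10 met a PitaZ276 FLAG peak, where 99.6% did. With the Pita antibody the counts were 9 of 10 in PitaΔZ (88.2% of all) and 10 of 10 in PitaZ276 (87.3% of all). With 10 sites, these shares cannot be set apart from those of all gene-end peaks of that strength.

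Taking all 18 sites, 12 met a PitaΔZ FLAG peak (66.7%, 41.0 to 86.7), against 48.4% of the 977. In PitaZ276 FLAG 15 did (83.3%, 58.6 to 96.4), against 72.1%. The Pita lists held 13 in Pitawt (72.2%, 46.5 to 90.3, background 66.9%), 11 in PitaΔZ (61.1%, 35.7 to 82.7, background 51.3%) and 10 in PitaZ276 (55.6%, background 33.2%). Every one of the 5 intervals includes its background, also that of PitaZ276 Pita, which ran from 30.8 to 78.5. The lists differ in length and in threshold, and a site that is not listed may be bound below it.

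Of the 6 sites missing from PitaΔZ FLAG, 5 had Pitawt FLAG folds of 3.91 to 8.69, those at COX6B, COX7A, mRpL18, ND-MWFE and mRpL52. The sixth was ND-15, with 16.4. Among the gene-end peaks with Pitawt FLAG folds of 12.8 to 26.9, 2 of 3 mitochondrial sites met a PitaΔZ FLAG peak (66.7%), where 65.6% of all peaks did, so the missing ND-15 site is not set apart from the background. PitaZ276 FLAG held ND-15, mRpL52 and COX7A of these 6. With every list shortened to its strongest 492 peaks, 11 of the sites stayed in Pitawt FLAG, and all 11 met a peak in PitaΔZ FLAG and in PitaZ276 FLAG. The shares for all near-end peaks were then 78.2% and 88.8%.

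**Figure D3:**
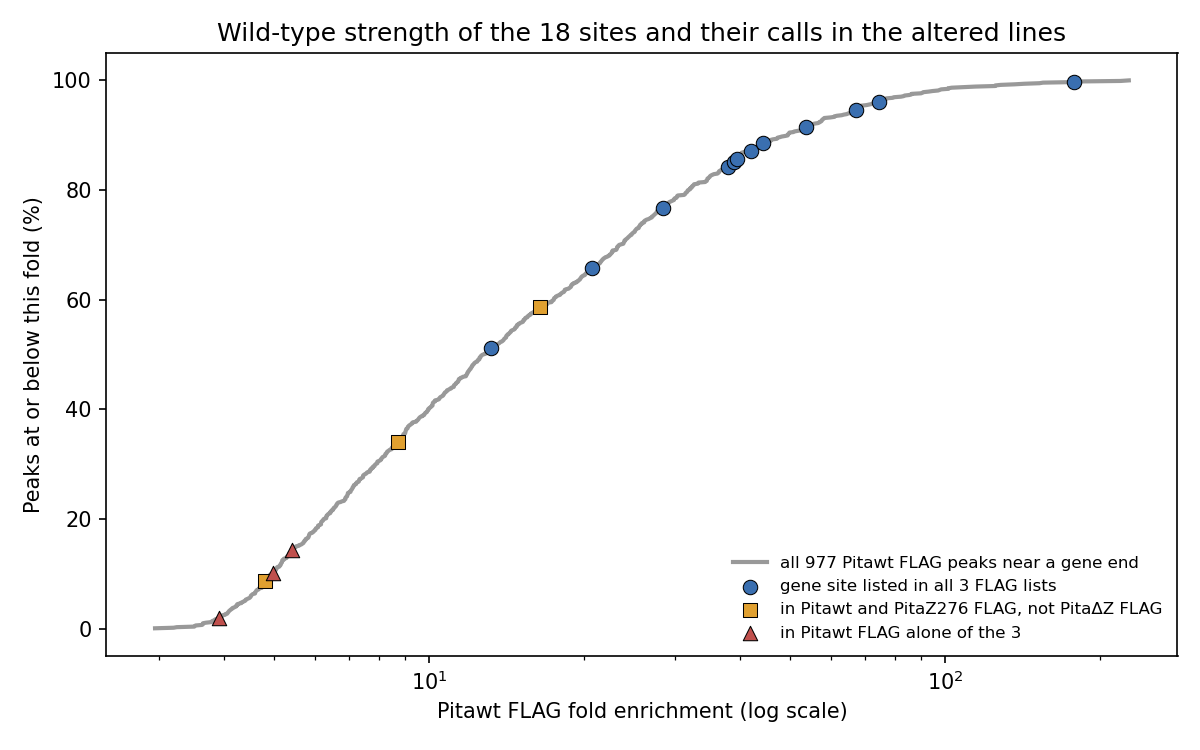
Cumulative share (%) of the 977 Pitawt FLAG peaks within 500 bp of a gene end against their fold enrichment (log axis, grey line), with the 18 mitochondrial sites marked by the FLAG lists that hold them. All sites with a fold of 20.7 or more are in all 3 FLAG lists (circles), and the sites missing from PitaΔZ FLAG have folds of 3.91 to 16.4.

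The order of the sites among themselves was not the same in every list. Folds are not comparable between lists, but the same 9 sites can be ordered within each list. The genes named in this comparison were chosen after their values were seen. mRpL47 held position 3 of 9 in Pitawt FLAG and 4 in Pitawt Pita, and it held position 8 in both PitaΔZ lists. In PitaZ276 it held position 5 with FLAG and 4 with Pita. ND-B8 went from position 4 and 3 in Pitawt to 7 in both PitaΔZ lists, and it had 7 and 3 in PitaZ276.

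ND-B14.5B took the opposite path, with position 8 in Pitawt FLAG, 7 in Pitawt Pita and 3 in both PitaΔZ lists. In PitaZ276 its position was 3 with FLAG and 9 with Pita. mRpL1 held 7 and 5 in Pitawt, 4 in both PitaΔZ lists, and 8 with FLAG and 5 with Pita in PitaZ276. The PitaΔZ FLAG and PitaΔZ Pita lists gave all 9 sites the same order by fold, from mRpL13 and UQCR-Q at the top to ATPsynF at the bottom. By fold the PitaZ276 lists did not match each other, as mRpL13 was in position 6 with FLAG and 8 with Pita and ND-B14.5B moved between 3 and 9.

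Ordering by −log10 p in each of the joined columns gave like positions for some of these sites and lists and not for others. mRpL47 was in position 4 and 3 in the first and second column of Pitawt FLAG and in position 9 in both columns of both PitaΔZ lists. ND-B14.5B was in position 9 and 7 in Pitawt FLAG, 3 in both columns of PitaΔZ FLAG and 4 in both of PitaΔZ Pita. In PitaZ276 FLAG it was in position 6 and 8, where its fold put it in position 3. mRpL1 moved little, from position 6 in both columns of Pitawt FLAG to 4 in both of PitaΔZ FLAG. With the Pita antibody mRpL1 was in position 5 and 4 in Pitawt and 3 in both columns in PitaΔZ. ND-B8 was in position 7 in both columns of PitaΔZ FLAG, as by fold, but in position 5 in both of PitaΔZ Pita and 4 in both of PitaZ276 FLAG, where its fold put it in position 7 in each. In the second column of both PitaZ276 lists mRpL13 was in position 2 and ND-B14.5B in position 8, so the mismatch by fold was not seen there. In the first column mRpL13 was in position 8 in both lists, and ND-B14.5B was in position 6 with FLAG and 9 with Pita. The joined columns are not known to be separate libraries, so these orders have no replicate test.

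**Figure D4:**
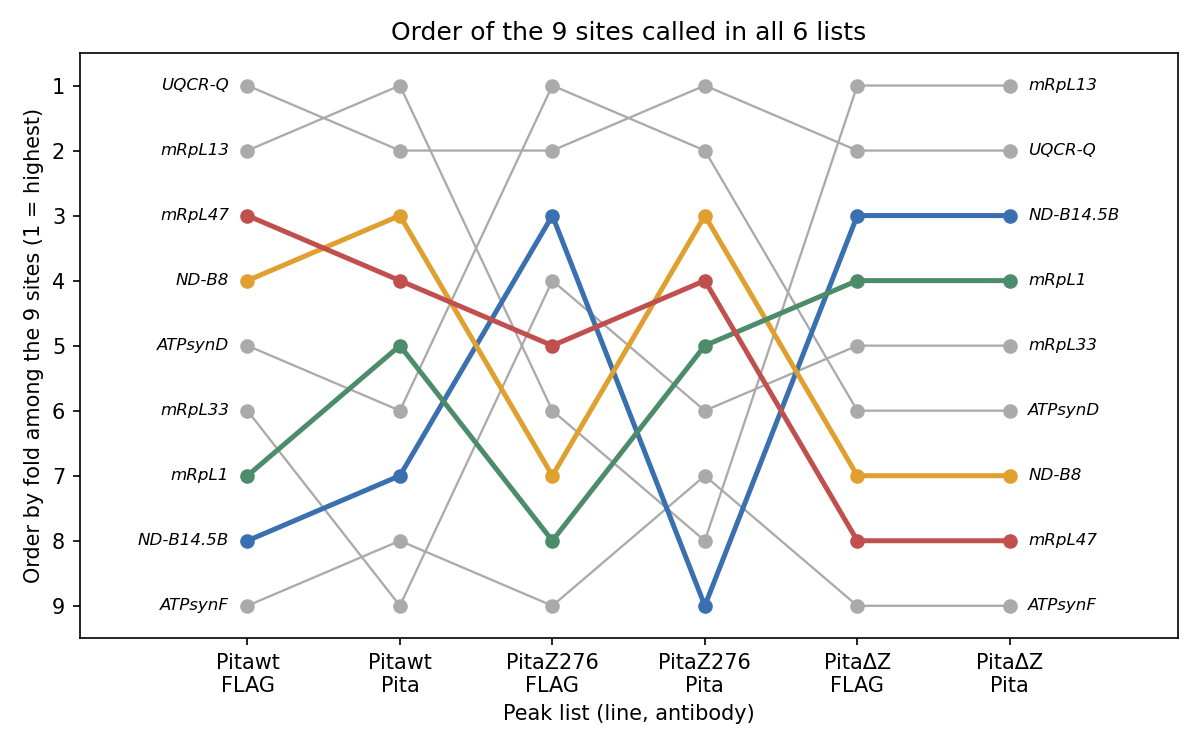
Position by fold (1 is the highest) of the 9 sites called in all 6 lists, within each list, with lines joining each gene across lists. mRpL47 (red) is in position 3 and 4 in Pitawt and in position 8 in both PitaΔZ lists, and ND-B14.5B (blue) is in position 8 and 7 in Pitawt and 3 in both PitaΔZ lists.

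Summit positions were nearly fixed across lines and antibodies at most of the sites called in 5 or 6 lists. Of these 12 sites, 10 had all summits within 100 bp of each other, and the median range was 42.0 bp. The exceptions were ATPsynD and ND-B14.5B, with ranges of 278 and 405 bp. COX7A, in 2 lists, is not among the 12, and its summits were 763 bp apart. The spread was not computed for other genes, so no trait of the mitochondrial genes is read from it. At mRpL33 the 6 summits spanned 14 bp, at ATPsynC 5 summits spanned 20 bp, and at mRpL47 6 summits spanned 25 bp. In Pitawt FLAG 13 of the 18 summits lay outside the member gene and 5 inside. The median distance to the gene end was 154 bp, against 190 bp for all genes reached. For the 9 genes reached in all lists it was 61.0 bp, and the like value over all genes reached in every list was not computed. The gene table gives no strand, so starts and ends of transcription cannot be told apart.

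**Figure D5:**
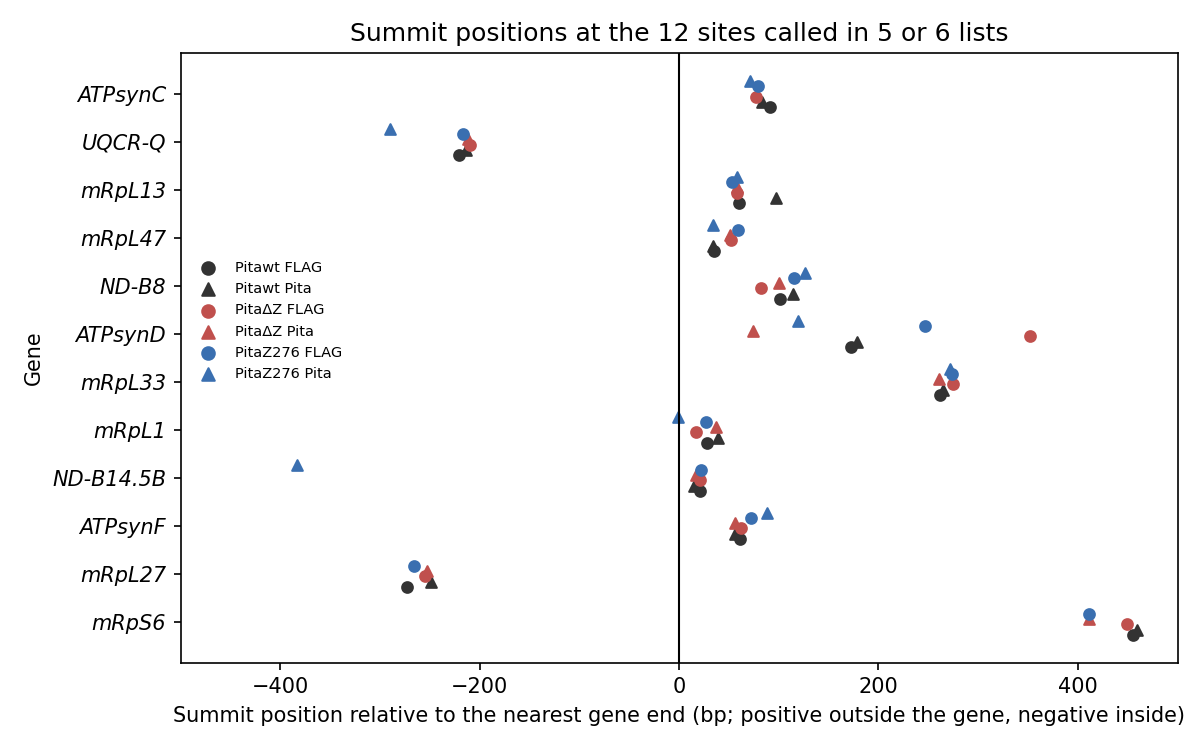
Summit position relative to the nearest end of the gene (bp, positive outside the gene and negative inside) for the 12 genes called in 5 or 6 lists, with colour for the line and shape for the antibody. Summits of a gene cluster tightly except at ATPsynD, which spans 278 bp, and ND-B14.5B, where the PitaZ276 Pita summit lies 383 bp inside the gene.

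Most of these sites were shared with another gene. At 15 of the 18 Pitawt FLAG sites (83.3%) another gene also had an end within 500 bp, and the same held for 67.8% of all 1505 genes reached in that list. Only ATPsynD, COX7A and mRpL27 had the window to themselves. The end of the mitochondrial gene was the nearest at 10 sites, tied with another gene at 2 (COX6B with CG18809, mRpL13 with CG10602) and was farther than that of another gene at 6. In the last group, the mRpL33 summit was 133 bp from norpA, the phospholipase C gene of phototransduction, and 262 bp from mRpL33.

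The ND-B8 site was 72 bp from Secp43 and 101 bp from ND-B8. The mRpS6 summit lay 7 bp from an end of Cip4, inside that gene. The mRpL18 summit lay inside Taz, which encodes the cardiolipin-remodelling enzyme tafazzin, 400 bp from its end, and that of ND-MWFE inside TppII, a peptidase gene. The mRpL52 summit lay inside CG12107. Of the sites reached in all 6 lists, the summit at mRpL47 stood 35 bp from that gene and 64 bp from Kdm3, a histone demethylase gene, and from CG8176. Between ATPsynF and CG3548 the summit was 61 and 65 bp from the respective ends. A summit between such close genes cannot be assigned to one of them.

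Other nuclear genes for mitochondrial function were taken as 5 lists of genes that the symbol rule misses, chosen from textbook roles. Of 55 genes listed, 54 matched the RefSeq table, and Pitawt FLAG reached 9 of them (16.7%, 7.92 to 29.3), against 8.51% of all genes. Pitawt Pita reached 7 (13.0%, 5.37 to 24.9, against 6.01%), and both PitaΔZ lists reached 4 (7.41%, 2.06 to 17.9, against 4.35% with FLAG and 4.87% with Pita). PitaZ276 FLAG reached 5 (9.26%, 3.08 to 20.3, against 6.64%) and PitaZ276 Pita 2 (3.70%, 0.452 to 12.7, against 2.96%). Every interval includes the value for all genes. Of 15 further respiratory chain and ribosome genes, Pitawt FLAG reached 3. The strongest was tko, which encodes the small-subunit protein S12 of the mitochondrial ribosome. It was reached in all 6 lists, with FLAG folds of 46.4 in Pitawt, 31.7 in PitaΔZ and 31.7 in PitaZ276. The cytochrome c genes Cyt-c-p and Cyt-c-d met 1 weak Pitawt FLAG peak between them, with a fold of 4.40.

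Of 8 mitochondrial translation factor genes, mEFTs, for the elongation factor Ts, was reached in every list but PitaZ276 Pita, with FLAG folds of 18.8 in Pitawt, 44.1 in PitaΔZ and 12.3 in PitaZ276. Of 13 tricarboxylic acid cycle genes, Pitawt FLAG reached 2. ScsbetaA, a succinyl-CoA synthetase subunit gene, had FLAG folds of 16.9, 7.97 and 15.3 and was in all 6 lists. Fum2, a fumarase gene, had 8.29, 10.9 and 11.5. ScsbetaG was listed in PitaZ276 FLAG alone, with a fold of 3.59. mtTFB1 was the only one of 11 genes of mitochondrial DNA maintenance and transcription that was reached, in the Pitawt lists alone, with folds of 7.14 and 6.97. Of 7 matched assembly factor genes, CIA30 and Cox10 were likewise in both Pitawt lists, with FLAG folds of 9.97 and 7.19, and in no list of the altered lines. Many gene-end peaks with Pitawt FLAG folds of 7.04 to 12.7 were also unlisted there. Of all such peaks 26.2% met a PitaΔZ FLAG peak, 33.6% a PitaΔZ Pita peak, 65.6% a PitaZ276 FLAG peak and 7.38% a PitaZ276 Pita peak. No loss is read from the few sites at mtTFB1, CIA30 and Cox10.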

How the data were processed

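Per the submitters' processing notes, reads were handled with cutadapt, Bowtie2, Picard, bedtools, MACS2 and deepTools on dm6; their versions were not stated. Deposited were 6 lists of 20 columns without a header. Their layout is that of a test of irreproducible discovery rate (IDR). Column 7 was read as the authors' fold enrichment, a ratio, column 8 as the deposited −log10 p-value, column 19 as that of the second joined list, and column 12 as the deposited −log10 IDR score. Columns 13 to 16 repeat the first joined list. Which libraries were joined is not stated.

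A gene counted as reached when a summit lay within 500 bp of either end in the RefSeq table (Release 6 plus ISO1 MT, the assembly dm6 names). Peaks met when they shared 1 bp. Shares carry exact Clopper-Pearson 95% intervals. Every member reached in any list is named. Members and lists were chosen with earlier results of these data known. Promoter sequences and motifs were not analysed here. Matching was tested on simulated data and found 100% of planted sites. Python 3.11.15, numpy 2.4.6, pandas 2.3.3, scipy 1.17.1 and matplotlib 3.10.9 were used.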

Additional observations from a re-analysis of the deposited data

Results flagged for a closer look

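A peak on the mitochondrial genome was listed in PitaΔZ Pita and in none of the other 5 lists. It stands out as signal outside the nuclear genes that the comparisons used. The peak ran from 125 to 735, over trnQ, trnM and part of ND2, the gene of a complex I subunit, with a fold of 2.77 and a rank of 786 of 797. Its summit was at 577 in the first joined list and at 168 in the second. It was called against the preimmune library, and what gave rise to it was not tested.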

How the results depend on the processing

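Of 88 alternative values, 63 stayed near the main one and 25 moved. No paired analysis was possible because each deposited list joins a pair of peak lists whose libraries are not stated, and for that reason no replicate could be left out. Planned motif searches were not run. With a window of 200 bp the counts fell, since sites at 200 to 500 bp drop out. In Pitawt 10 were reached with FLAG (6.54%, against 4.41% of all genes) and 9 with Pita (5.88%, against 3.33%). Both PitaΔZ lists reached 7 (4.58%, against 2.66% with FLAG and 2.94% with Pita). PitaZ276 reached 8 with FLAG (5.23%, against 3.42%) and 7 with Pita (4.58%, against 1.73%). The interval lay above the value for all genes in PitaZ276 Pita alone, and it included that for protein-coding genes in every list. With 2000 bp, chosen after seeing the data, the count rose to 37 in Pitawt FLAG and 27 in Pitawt Pita. It rose to 19 in PitaΔZ FLAG, 19 in PitaΔZ Pita, and for PitaZ276 to 26 with FLAG and 19 with Pita. These are 12.4% to 24.2% of the members, where 16.7%, 11.3%, 7.12%, 7.81%, 12.0% and 5.11% of all genes were reached in that order of lists, and the interval lay above the value for all genes in 4 lists and above that for protein-coding genes in 1. Counting any part of a peak within 500 bp of the gene, also chosen afterwards, gave 32 in Pitawt FLAG (20.9%, against 15.1% of all genes). With lists shortened to 492 peaks Pitawt FLAG reached 11, and the peaks of lowest −log10 p were left out. Of these sites 100% met a peak in Pitawt Pita, PitaΔZ FLAG and PitaZ276 FLAG, where 83.9%, 78.2% and 88.8% of all near-end peaks did. In PitaΔZ Pita and PitaZ276 Pita 90.9% did, against 72.4% and 76.4% of all near-end peaks. With 50% reciprocal overlap 38.9% of sites met a Pitawt Pita peak and 16.7% a PitaZ276 Pita peak. The share of all near-end peaks was not computed for that rule. Members reached in every list were 9 (5.88%, against 2.36% of all genes), and without PitaΔZ Pita they were 10 (6.54%, against 2.56%). Without the PitaZ276 Pita list they were 11, and in the 3 FLAG lists 12. For the counts of 11 and 12 the share over all genes was not computed, so nothing about the genes is read from them. Unknown depth and the absence of replicate values limit every difference between lines.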
